A study of Homo sapiens with 10 samples.

Results

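The genes described here are 10 genes of the integrated stress response and its neighbourhood: the transcription factors ATF4, ATF5 and DDIT3, the feedback regulators TRIB3 and PPP1R15A, the effector enzymes CHAC1 and ASNS, and the sestrins SESN1, SESN2 and SESN3. They were taken by gene name, and all 10 were found among the 35606 genes listed in each of the deposited tables. All 10 passed the filter on low values, a mean of at least 1 CPM in their table, CPM being a read count scaled to the size of its library.

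In the integrated stress response, kinases that sense amino acid shortage, unfolded protein, double-stranded RNA or heme shortage phosphorylate the translation initiation factor eIF2, which lowers general protein synthesis and favours translation of a few mRNAs, ATF4 among them. ATF4 is a basic leucine zipper transcription factor that pairs with C/EBP proteins and turns on genes of amino acid uptake and synthesis, tRNA charging and redox balance. DDIT3, also called CHOP, and ATF5 are further factors of the same arm, and TRIB3 and PPP1R15A restrain it. The sestrins are stress-induced proteins that bind the GATOR2 complex and hold back mTORC1; SESN1 is a p53 and FOXO target, SESN2 an ATF4 and p53 target, and SESN3 a FOXO target.

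RNA was sequenced from QGP-1 cells, a human pancreatic neuroendocrine tumor line, in 5 groups of 2 samples each. In the knockdown experiment, cells stably carrying the CRISPR interference repressor dCas9-KRAB with a non-targeting guide (sgNC) were compared with cells carrying the same vector with the single guide sgPIKFYVE-1, which represses PIKFYVE, the lipid kinase that makes phosphatidylinositol 3,5-bisphosphate on endosomes and lysosomes. The lines were selected with puromycin after lentiviral transduction, with no picking of clones described. With a single targeting guide, an effect of the guide or of the line cannot be told apart from one of PIKFYVE loss. Changes with knockdown are meant below in that sense. In the drug experiment, parental QGP-1 cells, labelled WT, received DMSO, 1 µM apilimod, a PIKfyve inhibitor, or 100 nM Torin-1, an ATP-competitive inhibitor of mTOR in both of its complexes. The sample labels give 24 h for all drug groups, while the study's text gives a shorter treatment. The labels do not say whether the replicates were separate cultures, so the p-values measure the spread between these samples, which may be technical.

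A letter pattern in the promoters is shown first, since ATF4 and its C/EBP partners bind a composite element whose core is written TGATGNAA. In RefSeq promoter windows (build GRCh38.p14, 250 bases before to 50 after a gene's start), these letters or their reverse complement TTNCATCA were found in 2 of the 10 genes, ASNS and CHAC1, that is 20%. Among all 27305 genes with such a window, 1217 held them (4.46%), and among 27 other genes known as ATF4 targets that have a window, 10 did (37%). The ASNS match lay within chr7:97872429-97872516, with its first base 68 bases before the start, in 1 of 2 ASNS windows, and read TGATGNAA along the gene's strand (minus). The CHAC1 match lay within chr15:40953222-40953309, 209 bases before the start, and read TTNCATCA along the gene's strand (plus), so that TGATGNAA is read there on the minus strand. Both stretches are printed 5′ to 3′ on the gene's strand with the match in capitals.
ASNS: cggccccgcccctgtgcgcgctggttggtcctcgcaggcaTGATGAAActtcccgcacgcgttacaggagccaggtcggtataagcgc
CHAC1: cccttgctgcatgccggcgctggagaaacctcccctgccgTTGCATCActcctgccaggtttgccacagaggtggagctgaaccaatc
Matches of other ATF4 targets are given for comparison. The enzymes AARS1 and GARS1 charge tRNA with alanine and glycine, SLC1A5 carries glutamine, and HERPUD1 serves degradation of endoplasmic reticulum proteins. The printed stretches lay, with the gene's strand in parentheses, at chr16:70289674-70289705 (minus), chr7:30594833-30594864 (plus), chr19:46784892-46784923 (minus) and chr16:56931954-56931985 (plus).
AARS1: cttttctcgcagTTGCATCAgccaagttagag
GARS1: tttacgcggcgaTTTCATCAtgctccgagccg
SLC1A5: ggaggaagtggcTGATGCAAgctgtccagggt
HERPUD1: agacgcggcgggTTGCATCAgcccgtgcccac
For the other 8 genes these letters were not in the windows, which says nothing of elements elsewhere or of other spelling.

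The estimated depth was about 9300000 to 13600000 reads per sample, at which 3 reads correspond to 0.227 to 0.329 CPM. PIKFYVE was at 101 and 97.5 CPM in the sgNC samples and at 10.9 and 12.5 CPM in the sgPIKFYVE-1 samples, a log2 fold change of -2.98 (SE 0.0979, adjusted p = 1.22e-14 by limma). Of 10 neuroendocrine markers, 9 were above 1 CPM in every sample, and NEUROD1 was at 0.701 CPM or less. Their summed level was 7407 and 7701 CPM in sgNC, 6286 and 6556 CPM in sgPIKFYVE-1, 7462 and 7453 CPM with DMSO, 6607 and 6401 CPM with apilimod, and 9519 and 9758 CPM with Torin-1. SCG2 (3068 to 5622 CPM) and CHGB (1442 to 2586 CPM) were the largest parts of these sums. Single markers went both ways: of 9 tested, 1 was called higher and 4 lower with knockdown, and 5 and 3 with Torin-1. With apilimod none was called higher and 3 lower. The shares over all genes are given below. The 11 markers of other cell types summed to 13.7 and 15.3 CPM in sgNC, 11.5 and 10.02 CPM in sgPIKFYVE-1, 9.56 and 11 CPM with DMSO, 20.1 and 19 CPM with apilimod, and 19.5 and 23.4 CPM with Torin-1, with CD3E, COL3A1 and CPA1 at 0 in every sample. The sums were higher with both drugs than with DMSO without overlap, and PRSS1, a pancreatic acinar protease, was called higher with apilimod (log2 fold change 1.21) and with Torin-1 (1.27). PRSS1 was the highest of these markers in every sample of the drug experiment, at 5.34 to 18 CPM, followed by COL1A1 at 1.27 to 3.17 CPM. In the knockdown experiment PRSS1 was at 0 to 0.329 CPM. COL1A1, a fibroblast collagen, was called lower with knockdown (-0.51). Whether either list has a part in the results was not tested. All samples were cultures of the QGP-1 line. In such bulk samples, a change in the share of cells with a marker and one in its RNA per cell cannot be told apart.

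The questions were how these stress genes changed when PIKfyve was repressed or inhibited, and how that compared with direct inhibition of mTOR. PIKFYVE knockdown raised 6 of the 10 genes, CHAC1 by a call that several alternatives lost, and lowered none, apilimod raised 4 and lowered none, and Torin-1 raised 3 and lowered 4. DDIT3 was the only member called higher in all 3 comparisons. ATF5 and TRIB3 rose with knockdown and with apilimod, whereas with Torin-1 ATF5 fell and TRIB3 did not pass the test. A gene was called at a Benjamini-Hochberg adjusted p under 0.05 by limma on log2(CPM + 1) over all genes tested, and all log2 fold changes below are on that scale, which understates the change of low genes.

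These counts stand against the following background. With knockdown, 21.6% of 13591 genes tested were called higher and 20.9% lower; with apilimod, 5.75% of 13520 were called higher and 2.79% lower; with Torin-1, 16.6% were called higher and 21.8% lower. The split for apilimod, 778 higher and 377 lower, became 658 and 536 when the values were quantile normalized. The median log2 fold change of the 10 genes was 0.364 with knockdown, 0.241 with apilimod and -0.188 with Torin-1, beside medians over all genes of -0.00421, -0.00575 and -0.0119.

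**Figure D1:**
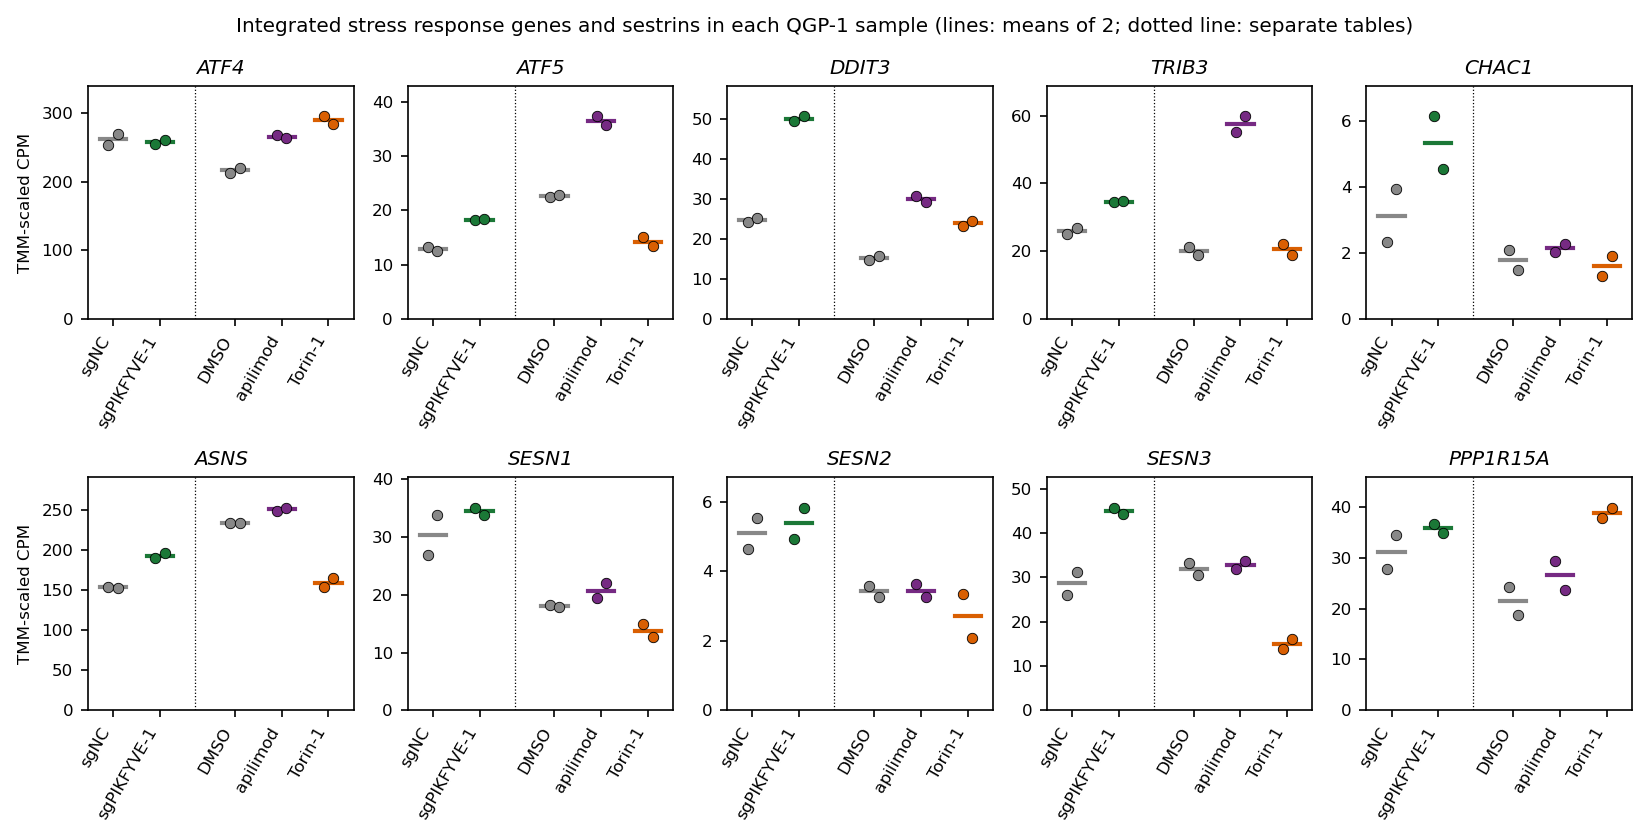
CPM of the 10 genes in each of the 10 samples on a linear axis, one panel per gene, with a point per sample and a bar at each group's mean (n = 2). DDIT3 is above its control in all 3 treated groups, TRIB3 stands highest with apilimod (55.3 and 59.8 CPM), and SESN3 is lowest with Torin-1 (13.9 and 16.2 CPM).

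ATF4 encodes the central factor of the response, whose output is set largely by translation. Its level was 253 and 271 CPM in sgNC and 255 and 262 CPM in sgPIKFYVE-1, so the knockdown samples lay within the range of their controls. The log2 fold change was -0.02 (95% interval -0.123 to 0.0861, adjusted p = 0.794). In the drug experiment ATF4 was at 214 and 221 CPM with DMSO, 269 and 263 CPM with apilimod, and 296 and 285 CPM with Torin-1. Both drug groups lay above DMSO without overlap.
The log2 fold change of ATF4 was 0.29 with apilimod (SE 0.0495, adjusted p = 0.00151) and 0.42 with Torin-1 (SE 0.0495, adjusted p = 2.03e-05). Without the variance trend in limma, the apilimod change had an adjusted p of 0.0977 and was not called. The range of adjusted p over the alternatives for this value was 2e-04 to 0.0977.

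ATF5, a factor related to ATF4 that is also translated preferentially under stress, was at 13.2 and 12.5 CPM in sgNC and at 18.3 and 18.4 CPM in sgPIKFYVE-1. It was at 22.5 and 22.9 CPM with DMSO, 37.4 and 35.7 CPM with apilimod, and 15.1 and 13.4 CPM with Torin-1. The knockdown and apilimod samples were all above their controls, and the Torin-1 samples were both below DMSO.
ATF5 rose by a log2 fold change of 0.48 with knockdown (SE 0.134, adjusted p = 0.00669) and 0.66 with apilimod (SE 0.109, adjusted p = 0.00116). With Torin-1 the log2 fold change was -0.64 (SE 0.109, adjusted p = 4e-04).

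DDIT3, the pro-apoptotic C/EBP-family factor CHOP, was at 24.3 and 25.3 CPM in sgNC and at 49.4 and 50.6 CPM in sgPIKFYVE-1. It was at 14.8 and 15.8 CPM with DMSO, 30.7 and 29.2 CPM with apilimod, and 23.3 and 24.6 CPM with Torin-1. No treated sample overlapped its controls.
The log2 fold change of DDIT3 was 0.98 with knockdown (SE 0.0924, adjusted p = 6.71e-08), 0.92 with apilimod (SE 0.107, adjusted p = 5.02e-05) and 0.61 with Torin-1 (SE 0.107, adjusted p = 0.000508).

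The values of ATF5 and DDIT3 carry a limit of annotation. In GENCODE 29 (GRCh38), the exons of DDIT3 (chr12:57516588-57521737, minus strand) overlap those of MARS and MBD6 on the opposite strand, and exons of ATF5 (chr19:49928702-49933935, plus strand) overlap those of NUP62 on the opposite strand and of IL4I1. Whether the counting used strand is not given in the sources used here, so reads of these genes cannot be told apart with certainty. MARS, the methionyl-tRNA synthetase, was at 137 to 225 CPM, MBD6 at 71.3 to 89.8 CPM and NUP62, a nuclear pore protein, at 81.3 to 144 CPM.
MARS had log2 fold changes of 0.33 with knockdown (adjusted p = 3.92e-05), 0.000348 with apilimod (adjusted p = 0.998) and -0.45 with Torin-1 (adjusted p = 3.32e-05). MBD6 did not pass the test in any of the 3 comparisons, with adjusted p of 0.466, 0.651 and 0.711. NUP62 had log2 fold changes of 0.23 with knockdown (adjusted p = 0.00606), 0.02 with apilimod (adjusted p = 0.919) and -0.17 with Torin-1 (adjusted p = 0.0329). MARS was called in the same direction as DDIT3 with knockdown, was not called with apilimod and was called in the opposite direction with Torin-1. NUP62 was called in the same direction as ATF5 with knockdown and with Torin-1 and was not called with apilimod. The part of shared reads in these results was not tested.

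TRIB3, a pseudokinase that binds ATF4 and DDIT3 and dampens their output, was at 25.1 and 26.8 CPM in sgNC and at 34.4 and 34.8 CPM in sgPIKFYVE-1. With DMSO it was at 21.2 and 19.0 CPM, with apilimod at 55.3 and 59.8 CPM, and with Torin-1 at 22.3 and 18.9 CPM. Apilimod separated fully from DMSO, and the Torin-1 samples spanned the DMSO range.
The apilimod change of TRIB3, a log2 fold change of 1.47 (SE 0.11, adjusted p = 5.51e-07), was the largest of the 10 genes in any comparison with a control. With knockdown the log2 fold change was 0.40 (SE 0.0998, adjusted p = 0.00299), and with Torin-1 it was 0.03 (95% interval -0.205 to 0.266, adjusted p = 0.855).

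PPP1R15A, or GADD34, brings protein phosphatase 1 to eIF2 and so reverses its phosphorylation. It was at 27.8 and 34.5 CPM in sgNC and 36.6 and 34.8 CPM in sgPIKFYVE-1, a log2 fold change of 0.20 (95% interval -0.0236 to 0.424, adjusted p = 0.143). Without sgNC replicate 2 this became 0.35 with an adjusted p of 0.0334, and over all alternatives the adjusted p ranged from 0.0334 to 0.822.
In the drug experiment PPP1R15A was at 24.2 and 18.7 CPM with DMSO, 29.3 and 23.7 CPM with apilimod, and 37.7 and 39.8 CPM with Torin-1. Both Torin-1 samples stood above all the others, while apilimod overlapped DMSO. It rose with Torin-1 by a log2 fold change of 0.83 (SE 0.13, adjusted p = 0.000207), the largest rise among the 10 genes with that drug, and had 0.30 with apilimod (95% interval 0.0171 to 0.576, adjusted p = 0.204).

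ASNS makes asparagine from aspartate and is a classical ATF4 target with the element printed above. It was at 154 and 153 CPM in sgNC and at 189 and 196 CPM in sgPIKFYVE-1, a log2 fold change of 0.33 (SE 0.0528, adjusted p = 5.81e-05). With DMSO it was at 234 and 233 CPM, with apilimod at 248 and 252 CPM, and with Torin-1 at 153 and 164 CPM. ASNS fell with Torin-1, with a log2 fold change of -0.55 (SE 0.0534, adjusted p = 3.02e-06). The apilimod samples lay just above DMSO without overlap, but the log2 fold change of 0.10 (95% interval -0.0151 to 0.214, adjusted p = 0.313) did not pass the test.

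CHAC1, the enzyme that breaks down glutathione and carries the other printed match, was low in every sample. It was at 2.32 and 3.93 CPM in sgNC and at 6.14 and 4.53 CPM in sgPIKFYVE-1, which corresponds to about 25 and 45 reads against 56 and 42. Its log2 fold change of 0.64 (SE 0.247, adjusted p = 0.045) was called, but it fell to 0.35 (adjusted p = 0.387) without sgNC replicate 1 and to 0.45 (adjusted p = 0.27) without sgPIKFYVE-1 replicate 1. The call was also lost with no filter on low values (adjusted p = 0.194), with no variance trend (adjusted p = 0.12) and with a pseudocount of 0.1 (adjusted p = 0.0516). Over all alternatives its adjusted p ranged from 0.0107 to 0.387. In the drug experiment CHAC1 was at 2.08 and 1.49 CPM with DMSO, 2.04 and 2.27 CPM with apilimod, and 1.30 and 1.90 CPM with Torin-1, with the groups overlapping. The log2 fold changes were 0.18 with apilimod (95% interval -0.352 to 0.722) and -0.10 with Torin-1 (95% interval -0.638 to 0.436), intervals too wide to show a change of moderate size at this depth.

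Of the sestrins, SESN3 was called higher with knockdown, SESN1 and SESN3 lower with Torin-1, and SESN2 in no comparison. SESN3 was at 26.1 and 31.3 CPM in sgNC and at 45.7 and 44.3 CPM in sgPIKFYVE-1. With DMSO it was at 33.3 and 30.5 CPM, with apilimod at 31.9 and 33.6 CPM, and with Torin-1 at 13.9 and 16.2 CPM. The knockdown samples were clear of their controls on the high side and the Torin-1 samples on the low side, while apilimod and DMSO overlapped.
SESN3 rose with knockdown by a log2 fold change of 0.64 (SE 0.101, adjusted p = 4.33e-05) and fell with Torin-1, -1.04 (SE 0.111, adjusted p = 7.33e-06), the largest fall among the 10 genes. With apilimod it was 0.04 (95% interval -0.2 to 0.276, adjusted p = 0.899).

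SESN1 was at 26.9 and 33.8 CPM in sgNC and at 35.1 and 33.9 CPM in sgPIKFYVE-1, a log2 fold change of 0.19 (95% interval -0.0411 to 0.415, adjusted p = 0.181). Without sgNC replicate 2 it was 0.35 with an adjusted p of 0.0396, and the adjusted p over all alternatives ranged from 0.0396 to 0.904. With DMSO SESN1 was at 18.3 and 17.8 CPM, with apilimod at 19.5 and 22 CPM, and with Torin-1 at 14.9 and 12.8 CPM, with no overlap of either drug with DMSO.
The Torin-1 log2 fold change of -0.37 (SE 0.126, adjusted p = 0.0338) was called, and the apilimod change of 0.19 (adjusted p = 0.441) was not. The Torin-1 call was lost without DMSO replicate 1 (-0.35, adjusted p = 0.135), without DMSO replicate 2 (-0.38, adjusted p = 0.0995) and without Torin-1 replicate 2 (-0.26, adjusted p = 0.194). Without a filter on low values its adjusted p was 0.0863.

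SESN2, which binds leucine, was the lowest sestrin and was called in no comparison. It was at 4.64 and 5.54 CPM in sgNC and 4.93 and 5.83 CPM in sgPIKFYVE-1, and at 3.58 and 3.28 CPM with DMSO, 3.64 and 3.25 CPM with apilimod, and 3.35 and 2.07 CPM with Torin-1. All 3 treated groups overlapped their controls. The log2 fold changes were 0.07 with knockdown (95% interval -0.369 to 0.503), 0.01 with apilimod (95% interval -0.481 to 0.491) and -0.27 with Torin-1 (95% interval -0.761 to 0.211). SESN1 and SESN3 also overlap antisense genes in the annotation, with the same limit on strand as for DDIT3.

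**Figure D2:**
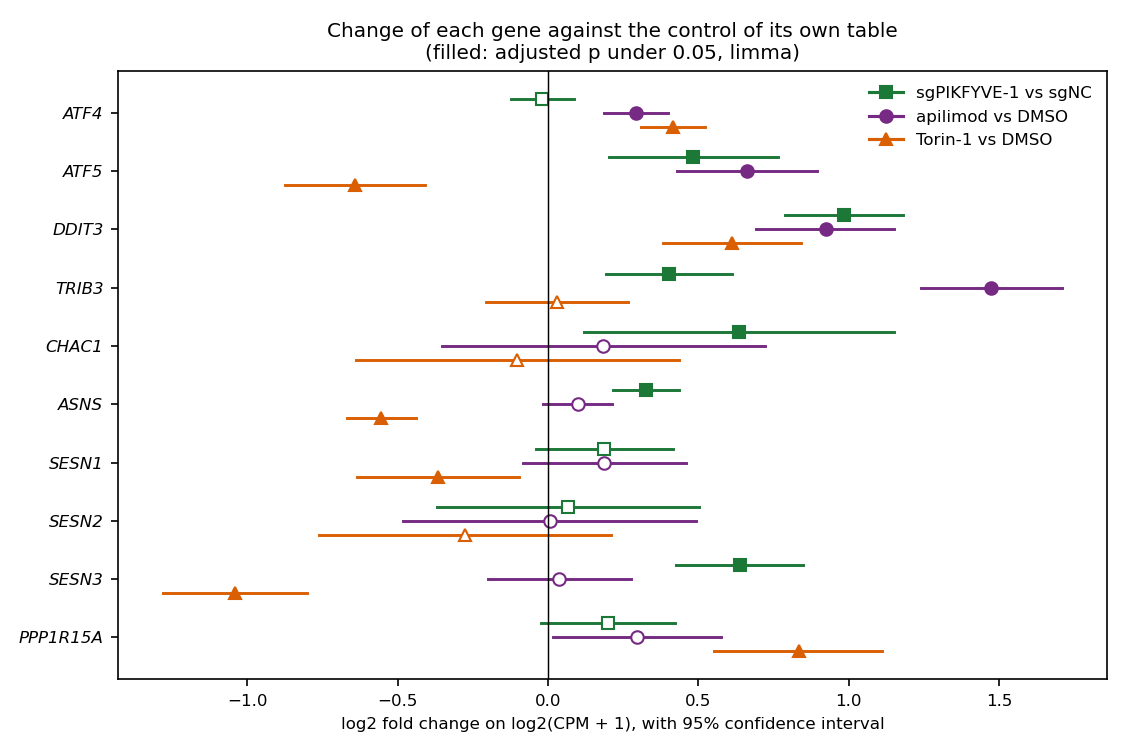
Log2 fold change on log2(CPM + 1) of each of the 10 genes against the control of its own table, with 95% confidence intervals from limma, for sgPIKFYVE-1 (squares), apilimod (circles) and Torin-1 (triangles), n = 2 samples per group. Filled symbols passed an adjusted p of 0.05. TRIB3 with apilimod (1.47) lies farthest to the right and SESN3 with Torin-1 (-1.04) farthest to the left.

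The drugs share their DMSO controls, so they were also compared with each other directly. Of the 10 genes, 6 were higher with apilimod than with Torin-1, 1 was lower and 3 did not pass the test, beside 26.2% of all genes called higher and 20.5% lower. After quantile normalization 5 of the 10 were higher and 2 lower, and the split over all genes turned from 3547 higher and 2765 lower to 3009 higher and 3232 lower. The largest differences were in TRIB3, with a log2 difference of 1.44 (adjusted p = 1.55e-07), ATF5, with 1.30 (adjusted p = 3.78e-07), and SESN3, with 1.08 (adjusted p = 2.87e-06). ASNS (0.65, adjusted p = 3.12e-07) and SESN1 (0.55, adjusted p = 0.00247) were also higher with apilimod.
PPP1R15A was lower with apilimod, with a log2 difference of -0.54 (adjusted p = 0.00382), which missed the threshold without apilimod replicate 2 (-0.39, adjusted p = 0.0503). DDIT3 was higher with apilimod by 0.31 (adjusted p = 0.0285), but the call was lost when any of the 4 samples compared was left out (adjusted p = 0.0523 to 0.137) and after quantile normalization (adjusted p = 0.0572). ATF4 had a difference of -0.12 (adjusted p = 0.0541), which became -0.26 (adjusted p = 0.00117) after quantile normalization. CHAC1 (0.29, adjusted p = 0.371) and SESN2 (0.28, 95% interval -0.206 to 0.766, adjusted p = 0.331) did not pass the test.
The knockdown and drug tables were normalized separately, so knockdown was not tested against apilimod. Their log2 fold changes side by side were 0.98 and 0.92 for DDIT3, 0.48 and 0.66 for ATF5, 0.40 and 1.47 for TRIB3, 0.33 and 0.10 for ASNS, and 0.64 and 0.04 for SESN3. The knockdown cells were a stably selected line, and the apilimod cells were parental cells under a short treatment. Control levels differed as well, for example ATF5 at a mean of 12.8 CPM in sgNC and 22.7 CPM with DMSO.

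Per kilobase of the principal transcript, ATF4 was the most abundant of the 10 genes and ASNS the next in every group. In sgNC, ATF4 was at 129.8 ± 6.01 CPM per kb (SD, n = 2), ASNS at 65.1 ± 0.340, DDIT3 at 26.4 ± 0.772, PPP1R15A at 13.1 ± 2.0, TRIB3 at 10.4 ± 0.474 and SESN1 at 8.65 ± 1.39. CHAC1 and SESN2 were the lowest, at 2.0 and 1.47 CPM per kb. With DMSO, ATF4 was at 107.5 ± 2.48 and ASNS at 99.1 CPM per kb, followed by DDIT3 at 16.3, ATF5 at 11, PPP1R15A at 9.02 ± 1.61 and TRIB3 at 8.04 ± 0.619. PPP1R15A and TRIB3 overlapped in the DMSO samples, so their order was within the spread there. The pseudogenes ATF4P1 to ATF4P4 were listed at 0.333 CPM or less and ASNSP at 0.835 CPM or less.

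Lists of related genes were counted in the same fits to place the 10 genes in their pathway. All list counts stand beside the shares over all genes tested. These were 21.6% called higher and 20.9% lower with knockdown, 5.75% and 2.79% with apilimod, and 16.6% and 21.8% with Torin-1. A count near these shares is not read as a response of its list. Among the eIF2 kinases, eIF2 subunits, phosphatases and exchange factor, 22 genes, knockdown raised 6 and lowered 1, apilimod changed none, and Torin-1 raised 5 and lowered 8. The median log2 fold changes were 0.0473, 0.0169 and -0.154. EIF2S1, the eIF2 subunit that is phosphorylated, rose with knockdown (0.38, adjusted p = 0.000513) and fell with Torin-1 (-0.59). EIF2AK3, the kinase PERK that senses unfolded protein, went from 44.9 and 44.5 CPM with DMSO to 67.5 and 69.4 CPM with Torin-1 (log2 fold change 0.60). DELE1, which relays mitochondrial stress, was lower with knockdown (-0.40).

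Of 13 basic leucine zipper partners of ATF4, 11 could be tested in each table. Knockdown raised 4 and lowered 2 (median 0.0998), apilimod raised 2 and lowered none (median 0.113), and Torin-1 raised 2 and lowered 3 (median -0.185). ATF3, a stress-induced repressor, was at 8.90 and 8.73 CPM in sgNC and 19.6 and 17.6 CPM in sgPIKFYVE-1, a log2 fold change of 0.996. It was at 4.16 and 2.99 CPM with DMSO and at 10.3 and 9.30 CPM with apilimod, 1.25 on the log2 scale (adjusted p = 0.00291). BATF3 fell with knockdown (-1.57, adjusted p = 2.55e-08), from 25.6 and 25.5 CPM to 8.11 and 7.77 CPM. With Torin-1, MAFG was highest of those called (0.35) and JUN lowest (-0.51).

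In the list of other ATF4 target genes, 34 tested of 35, genes were called in all 3 comparisons with a control. The share of all genes called higher was smaller with apilimod (5.75%) than with knockdown (21.6%) or Torin-1 (16.6%). Knockdown raised 21 and lowered 3, apilimod raised 11 and lowered 1, and Torin-1 raised 9 and lowered 20. The median log2 fold changes were 0.264, 0.123 and -0.304. Directly compared, 20 were higher and 5 lower with apilimod than with Torin-1, with a median difference of 0.375. Over all genes, 26.2% were called higher and 20.5% lower in that comparison.
GDF15, a secreted stress cytokine, was at 434 and 452 CPM in sgNC and at 1889 and 1709 CPM in sgPIKFYVE-1, a log2 fold change of 2.02 (SE 0.0463, adjusted p = 5.25e-17). DDIT4, or REDD1, an inhibitor of mTORC1, was lowered by knockdown (-0.53, adjusted p = 6.53e-07), from 143 and 144 CPM to 101 and 96.9 CPM. It was raised by apilimod (1.06, adjusted p = 4.3e-05), from 38.6 and 42.0 CPM to 83.9 and 85.5 CPM, and lowered by Torin-1 to 4.38 and 5.86 CPM (-2.76, adjusted p = 1.38e-09). KLHL24, also regulated by FOXO factors, was the highest with Torin-1, at 106 and 114 CPM against 21.7 and 24 CPM with DMSO (2.21, adjusted p = 3.91e-10). KLHL24 was also called higher with apilimod (0.91, adjusted p = 6.25e-06) and with knockdown (0.23, adjusted p = 0.0209). SLC38A2, an amino acid transporter, was the 1 gene lowered by apilimod (-0.30). It was also lower with knockdown (-0.45, adjusted p = 7.52e-08) and was higher with Torin-1 (0.62, adjusted p = 2.83e-06).

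**Figure D3:**
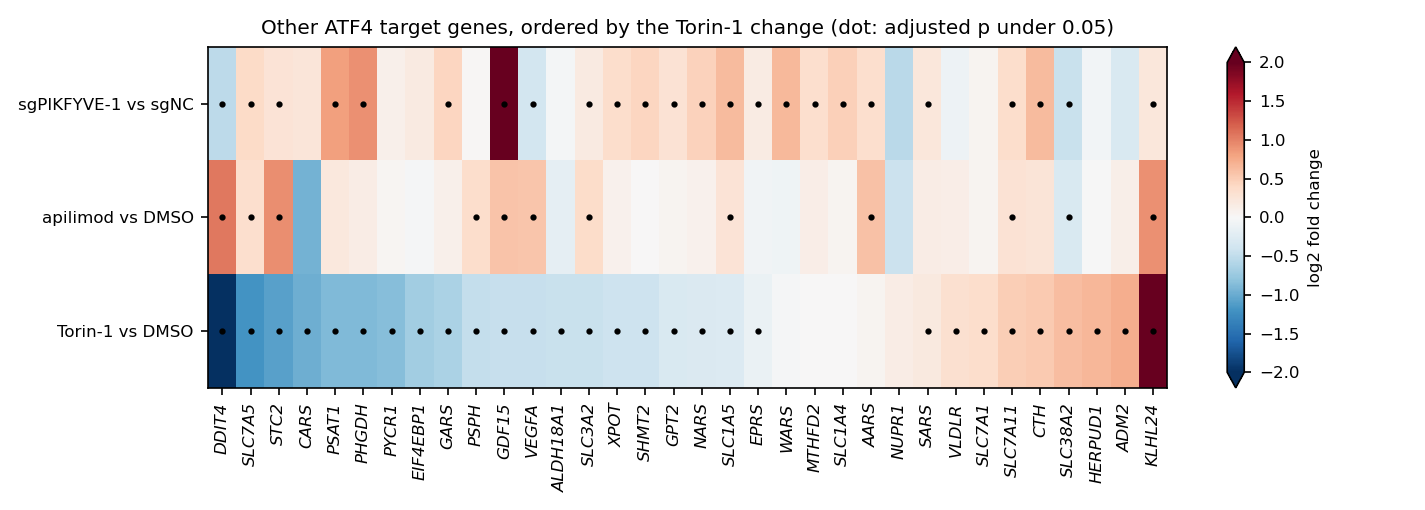
Log2 fold change on log2(CPM + 1) of the other ATF4 target genes (columns) in each comparison with a control (rows), as colour from blue (lower) to red (higher) that saturates at 2 in either direction. Many genes are red with knockdown and blue with Torin-1, and 11 of 34 were called higher with apilimod. GDF15 is highest with knockdown (2.02) and DDIT4 lowest with Torin-1 (-2.76).

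The GATOR complexes and the leucine and arginine sensors, through which sestrins act, were 13 genes. Knockdown raised 2 and lowered 1 (median 0.0645), apilimod raised 1 and lowered none (median 0.0232), and Torin-1 raised none and lowered 6 (median -0.144). The knockdown counts were below the shares over all genes, 21.6% higher and 20.9% lower. MIOS of GATOR2 was highest with knockdown (0.33). WDR59, also of GATOR2, was lower with knockdown (-0.20) and higher with apilimod (0.28). CASTOR2, an arginine sensor, went from 7.29 and 7.19 CPM to 5.36 and 4.04 CPM with Torin-1 (-0.54, adjusted p = 0.0311).

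SESN1 and SESN2 are targets of p53, and SESN3 and SESN1 of FOXO factors, so both target lists were counted. Of 20 other p53 targets tested of 22, knockdown raised 6 and lowered 1, apilimod raised 3 and lowered none, and Torin-1 raised 2 and lowered 5, with medians of 0.159, 0.107 and -0.123. CDKN1A, the cell cycle inhibitor p21, was at 10.01 and 8.47 CPM in sgNC and 37.9 and 31.6 CPM in sgPIKFYVE-1 (1.80, adjusted p = 2.95e-09). TP53INP1 led with apilimod (1.29), at 19.9 and 25.6 CPM against 7.97 and 9.37 CPM. BBC3, or PUMA, was highest with Torin-1 (0.96) and the death receptor TNFRSF10B lowest (-0.73). PLK3 was lower with knockdown (-0.38).

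Of 16 FOXO targets, knockdown raised 2 and lowered 5 (median -0.0622), apilimod raised 4 and lowered 2 (median -0.0272), and Torin-1 raised 10 and lowered 3 (median 0.498). SESN3 fell with Torin-1 while most genes of this list rose. FBXO32, the ubiquitin ligase atrogin-1, was at 9.63 and 8.21 CPM with DMSO and 42.0 and 39.6 CPM with Torin-1 (2.08). TXNIP, an inhibitor of thioredoxin and glucose uptake, was at 1802 and 1815 CPM in sgNC and 517 and 567 CPM in sgPIKFYVE-1 (-1.74, adjusted p = 2.78e-16), and fell with apilimod from 675 and 678 CPM to 317 and 322 CPM (-1.08). PDK4 was highest with knockdown (0.83), CCNG2 highest with apilimod (0.59), and CITED2 lowest with Torin-1 (-0.53).

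The unfolded protein response has further arms besides the ATF4 arm. Of the XBP1 and ATF6 target genes, 15 tested with knockdown and 16 in the drug table, knockdown raised 1 and lowered 9, apilimod raised none and lowered 3, and Torin-1 raised 6 and lowered 3. The medians were -0.247, -0.0866 and 0.0596. HSPA5, the chaperone BiP, was at 844 and 836 CPM with DMSO and 705 and 698 CPM with apilimod (-0.26, adjusted p = 0.000348). EDEM1 was lowest with knockdown (-0.41) and CALR the 1 gene raised (0.22). DERL3 was highest with Torin-1 (1.25, at 4.38 and 2.72 CPM against 0.724 and 1.04 CPM) and SDF2L1 lowest (-0.64).
Of 9 mitochondrial chaperones and proteases, knockdown raised 5 and lowered none (median 0.214), apilimod changed none (median 0.0547) and Torin-1 raised none and lowered 4 (median -0.182). HSPE1, the mitochondrial co-chaperonin, was at 183 and 195 CPM in sgNC and 295 and 317 CPM in sgPIKFYVE-1 (0.69, adjusted p = 3.96e-09), and fell with Torin-1 from 294 and 276 CPM to 123 and 138 CPM (-1.12).

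**Figure D4:**
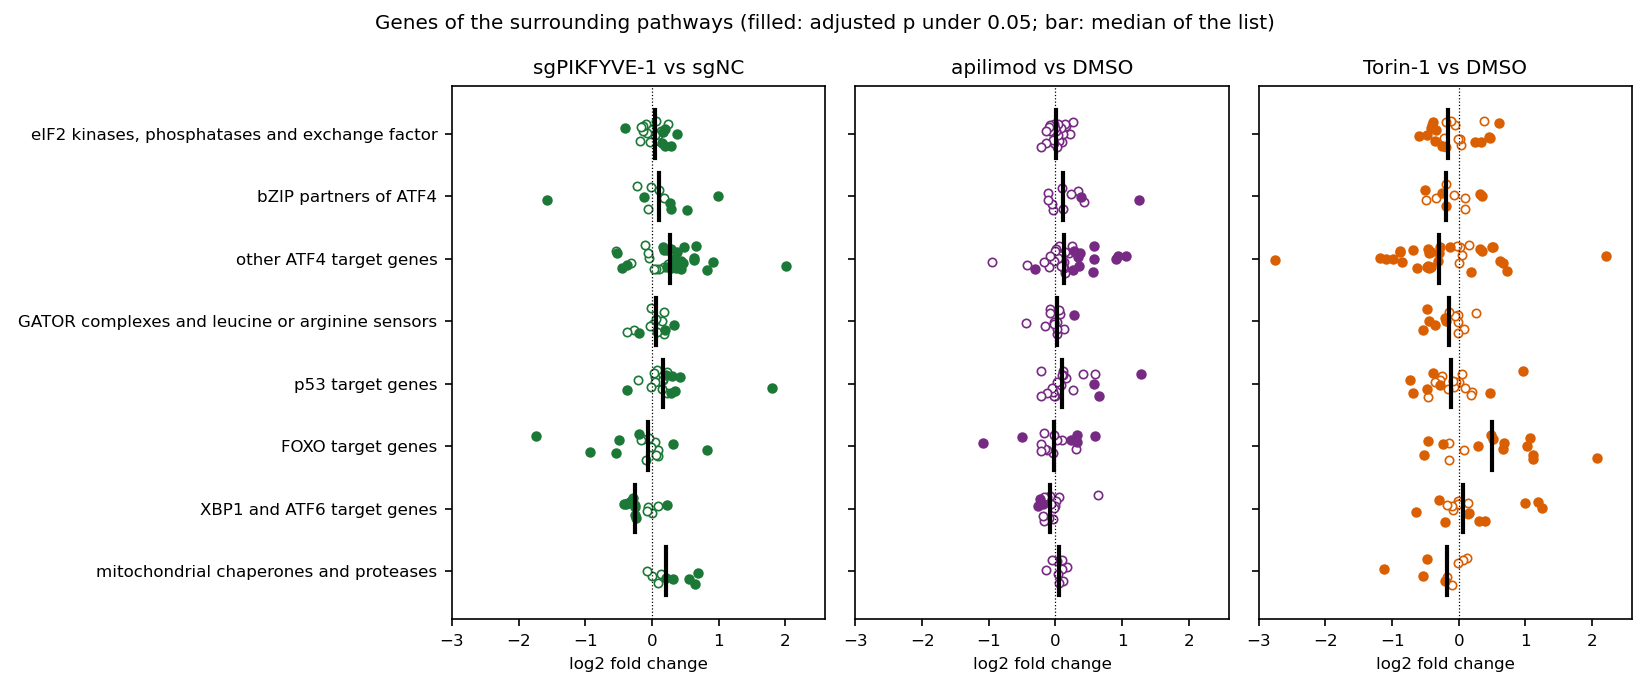
Log2 fold change on log2(CPM + 1) of every tested gene in each list (1 point per gene) with the list's median as a bar, by comparison with a control. The median of the other ATF4 targets is 0.264 with knockdown and -0.304 with Torin-1, and that of the FOXO targets is 0.498 with Torin-1.

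The genes whose pattern was most like each of the 10 are given as a description. The measure was Pearson's r over the 10 samples of log2(CPM + 1) less the control mean of the same table, among 9833 genes, so the treated groups largely set it. They were KLF11 (0.983) and KLC4 (0.971) for ATF4, ELOVL1 (0.997) and MFSD2A (0.996) for ATF5, and MCOLN3 (0.987) for DDIT3. For TRIB3 they were ACSS2 (0.991) and WBP2 (0.990), and for PPP1R15A RETREG2 (0.985) and NFX1 (0.975). ASNS was closest to HSPE1 (0.998) and ATP5MC3 (0.997), and CHAC1 to FDX2 (0.942) and MRPS24 (0.941). SESN1 was closest to BID (0.978) and THOC6 (0.970), SESN2 to CHST10 (0.937) and DHX16 (0.927), and SESN3 to ECHS1 (0.997) and MRPS12 (0.996).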

How the data were processed

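Per the labels and the study's methods, total RNA of QGP-1 cells was sequenced. The labels name ribosomal RNA depletion and the methods oligo(dT) selection. The submitters' processing notes name hg38, bcl2fastq 2.20, FastQC, Trimmomatic, edgeR and DESeq2, without their roles, and the methods describe estimates per transcript that were summed to genes; the quantifier, the annotation and the use of strand are not given in the sources used here. The authors deposited a table for each experiment with a signal per gene in CPM scaled by TMM (trimmed mean of M-values), whose columns sum to 972493 to 1024332. Read counts could not be recovered: 65.1 to 68.9% of low values were whole numbers of reads within 0.01. The values were therefore treated as a normalized signal, although plain CPM had been assumed in the design.

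The filter kept genes averaging 1 CPM or more over the samples of a table. The test was that of limma 3.58.1, run in R 4.3.3 as lmFit and eBayes with variance trend, on values logged to base 2 after adding 1 CPM, with the 4 samples of the knockdown table in one fit and the 6 of the drug table in another. P-values are two-sided and Benjamini-Hochberg adjusted over all genes tested. The fit was tested on simulated data. Depth was estimated from the steps between low values and is approximate. Named genes were the 10 members, per list and comparison the called gene with the highest and with the lowest change, PIKFYVE, and per member the 2 genes most alike with a mean of at least 10 CPM, of which 1 is not reported here; MARS, MBD6 and NUP62 were added afterwards because of their overlap, and PRSS1 and COL1A1 as the called markers of other cell types. The members, lists and tests were chosen with earlier results of these data known. Replicates of a group differed by more than counting noise. Promoter sequences are from RefSeq (GRCh38.p14), and figures were drawn with matplotlib 3.10.9.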

Additional observations from a re-analysis of the deposited data

How the results depend on the processing

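With 2 samples a group, precision is limited by the number of samples, and for CHAC1 and SESN2 also by depth. Each value was recomputed with a pseudocount of 0.1, no filter, quantile normalization, no variance trend, a replicate block and each sample left out, and in the drug experiment also with only the groups compared. Of 450 such values for single members, 419 kept direction and side of the threshold, 16 lost the call and 4 gained it. The other 11 changed sign and were not called: SESN2 with apilimod was -0.003243 after quantile normalization, and leaving out single samples gave -0.04062 to 0.1749 (SESN2, knockdown), -0.06566 to 0.02853 (ATF4, knockdown), -0.05756 to 0.0685 (SESN2, apilimod), -0.02304 to 0.0993 (SESN3, apilimod), -0.2665 to 0.0639 (CHAC1, Torin-1) and -0.08258 to 0.1438 (TRIB3, Torin-1).

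Requiring in addition a log2 fold change of at least 1 in size left 589 genes called with knockdown, 157 with apilimod, 278 with Torin-1 and 640 between the drugs, and 0, 1, 1 and 3 of the 10 members. Without the variance trend 3709 genes were called with knockdown and 466 with apilimod, and without a filter 565 with apilimod; the cause was not tested. Leaving out single samples gave 4439 to 5080 genes and 5 to 8 members with knockdown, 596 to 1315 and 4 with apilimod, 3574 to 5185 and 6 to 7 with Torin-1, and 5147 to 6032 and 5 to 7 between the drugs. Deviations of replicates with the same number correlated at 0.037 to 0.104 between groups. Noise in low genes can hide a shared effect, so this does not settle whether replicate numbers pair the samples. With the replicate block 1756 genes were called with apilimod, and ATF4 passed between the drugs (adjusted p = 0.0202); no other member's call changed.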
